A study of Mus musculus with 20 samples.

Results

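A set of 1567 p65 sites was called in knockout (KO) mouse macrophages at both times after lipopolysaccharide (LPS) and in no wild-type (WT) list of p65 sites. The sites were chosen by their peak calls: each is a peak of the KO 30 min list whose centre lay within 500 bp of a KO 8 h peak centre and more than 500 bp from every peak centre of the 3 WT p65 lists (control, 30 min and 8 h). They made up 3.63% (95% exact interval 3.46 to 3.81) of the 43124 peaks of the KO 30 min list and are called KO-only sites below. The whole series held 258959 peaks in 12 lists. Because the sites were selected on these p65 calls, their p65 levels and their distances from WT sites are given as a description and no test was made on them.

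The cells were bone-marrow-derived macrophages grown with M-CSF, from WT mice (labelled C65BL6) or from the KO, and binding was mapped by CUT&RUN, in which an antibody directs a nuclease to cut DNA around the bound protein. The groups were untreated cells (control) and cells given 100 ng/mL LPS for 30 min or for 8 h, in each genotype, with antibodies against p65 or SOCS1, and all cells were fixed briefly with formaldehyde. The disrupted gene is given as NOS1 in the description of the design, but the series title speaks of SOCS1 and no sample label names it, so whether SOCS1 peaks of KO cells stand for SOCS1 protein cannot be told. The labels give no age or sex of the animals. Each group was 1 library, so every interval below covers counting error only and no difference between groups was tested. Peak lists hold no expression values, so the labelled cell type could not be checked against marker levels. Depth was 18.4 M tags (10 M are 10000000) for p65 in KO cells at 30 min and 11 M at 8 h, against 13.3 M and 10.6 M in WT cells, so the KO 30 min library was the deepest.

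p65 (RELA) is a subunit of NF-κB, which is held in the cytoplasm by IκB proteins until LPS, sensed by TLR4, leads to their degradation. In macrophages p65 then enters the nucleus and binds promoters and enhancers, many of them already occupied by factors such as PU.1, C/EBP and AP-1, and it is known for the induction of cytokine, chemokine and feedback inhibitor genes. SOCS1 is a feedback inhibitor of cytokine signalling through JAK kinases, and NOS1 is the neuronal nitric oxide synthase.

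Part of the KO-only sites lay at promoters, where the bound DNA can be shown. Of the 32851 RefSeq promoter windows of GRCm38.p6 (mm10), each 250 bases before to 50 bases after a start site, 93 held the centre of a KO-only site. The following 6 sequences are the bases before the start site that lay under a KO-only peak, given 5′ to 3′ on the gene's strand. They were picked from the 12 promoter regions with the highest 30 min score and at least 150 such bases, to show regions with and without a motif match. All of the 12 with a match are among those printed, so matches are more frequent here than among the 12. Capitals mark letters that match a motif listed after the sequences.

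Adnp, chr2:168207153-168207362, minus strand: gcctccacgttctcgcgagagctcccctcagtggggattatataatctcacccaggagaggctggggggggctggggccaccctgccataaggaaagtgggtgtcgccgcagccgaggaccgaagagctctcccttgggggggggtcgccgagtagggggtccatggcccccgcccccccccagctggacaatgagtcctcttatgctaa

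Timm22, chr11:76406893-76407112, plus strand: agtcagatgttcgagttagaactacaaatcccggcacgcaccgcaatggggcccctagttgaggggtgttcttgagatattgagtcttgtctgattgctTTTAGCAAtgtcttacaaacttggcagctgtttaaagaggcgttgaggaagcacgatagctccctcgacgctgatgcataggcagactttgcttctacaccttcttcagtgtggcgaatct

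Dock2, chr11:34783925-34784147, minus strand: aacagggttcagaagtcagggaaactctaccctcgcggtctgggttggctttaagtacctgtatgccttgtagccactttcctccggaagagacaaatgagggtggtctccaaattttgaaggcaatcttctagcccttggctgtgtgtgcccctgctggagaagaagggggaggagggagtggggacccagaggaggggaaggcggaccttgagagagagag

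Wrnip1, chr13:32801796-32802018, plus strand: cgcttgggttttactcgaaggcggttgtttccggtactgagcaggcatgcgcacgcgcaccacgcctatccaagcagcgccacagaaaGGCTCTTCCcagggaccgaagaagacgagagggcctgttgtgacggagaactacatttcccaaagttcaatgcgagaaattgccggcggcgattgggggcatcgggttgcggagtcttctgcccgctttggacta

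Smc2, chr4:52438972-52439194, plus strand: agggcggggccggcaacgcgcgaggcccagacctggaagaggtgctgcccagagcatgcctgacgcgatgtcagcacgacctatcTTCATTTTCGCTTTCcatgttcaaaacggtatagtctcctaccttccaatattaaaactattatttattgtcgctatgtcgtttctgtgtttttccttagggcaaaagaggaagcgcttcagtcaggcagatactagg

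Fen1, chr19:10204478-10204643, minus strand: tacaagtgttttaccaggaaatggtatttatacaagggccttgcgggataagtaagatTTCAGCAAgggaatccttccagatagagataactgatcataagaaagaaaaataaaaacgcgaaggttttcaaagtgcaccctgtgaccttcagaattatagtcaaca

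The promoter of Wrnip1 (a partner of the Werner helicase) carries a match to the NF-κB motif GGNNNTTCC, that of Smc2 (a condensin subunit) a pair of overlapping matches to the interferon-type motif GAAANNGAA bound by IRF and STAT factors, and those of Timm22 (a mitochondrial import protein) and Fen1 (a flap endonuclease) a match to the C/EBP motif TTGCNNAA. The stretches at Adnp (a homeobox zinc finger protein) and Dock2 (a Rac activator of leukocytes) hold none of the motifs searched. On both strands of the windows with a KO-only site, GGNNNTTCC was found in 24 of 93 (25.8%, 17.3 to 35.9), beside 18.5% of all windows, 24.7% of the 2929 windows with any KO 30 min peak and 27.1% of the 809 windows with a site of both genotypes. The NF-κB share of the KO-only windows thus lay near that of other windows with p65 peaks. TTGCNNAA was found in 15.1% (8.48 to 24.0) beside 10.8% of all windows, and GAAANNGAA in 6.45% beside 8.56%. The AP-1 motif TGANTCA was found in 4.30% beside 7.81%, and the PU.1 motif GAGGAAGT in 5.38% beside 3.20%. The shares of all windows lay inside the intervals of the KO-only windows for these 4 motifs and for NF-κB. Of 50 promoter regions with at least 150 bases under a KO-only peak, 17 held a match to any of the motifs. This was not counted for other windows, so it has no share to be set beside. Regions of different genes can lie under the same peak, as at Ankrd16 and Fbh1. A match is a run of letters and is not shown to be a binding site.

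The tag counts at the printed promoters were moderate. At Adnp the p65 score, the authors' findPeaks count of tags in the peak with at most 1 tag per bp, was 65.5 at 30 min and 25 at 8 h, and the nearest WT centre lay 1532 bp away. Wrnip1 had scores of 48 and 29.5 with the nearest WT site 31239 bp away, so that no WT p65 peak lay near this promoter. At Timm22 they were 56 and 34 (WT site at 3732 bp), at Smc2 43.5 and 21 (602 bp), at Dock2 51.5 and 56 (528 bp) and at Fen1 40 and 52.5 (510 bp). The last 3 thus lay just beyond the 500 bp limit from a WT site.

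KO-only sites were a minority of what the KO lists did not share with WT. Of the 43124 KO 30 min peaks, 10224 (23.7%) had no WT p65 peak, and 15.3% (14.6 to 16) of these had a KO 8 h peak, against 49.3% (48.8 to 49.9) of the 32900 peaks with a WT peak. The other 8657 were called in KO cells at 30 min alone. The mirror set, peaks of the WT 30 min list with a WT 8 h peak and no p65 peak in any KO list, held 1053 of 36030 (2.92%, 2.75 to 3.10), and of the WT peaks with no KO peak 16.7% (15.8 to 17.6) had a WT 8 h peak. Of the 29710 WT 30 min peaks with a KO p65 peak, 62.7% (62.2 to 63.3) had a WT 8 h peak. Among unshared peaks the share called again at 8 h was thus 15.3% in KO and 16.7% in WT cells. Among shared peaks it was unlike, at 49.3% and 62.7%. A further 11024 KO 30 min peaks were called in both genotypes at both LPS times and serve as the comparison set. The 1567 KO-only sites were paired with 1557 distinct KO 8 h peaks, and for 174 (11.1%) the centre of the 8 h partner itself lay within 500 bp of a WT centre.

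The distance to the nearest WT p65 site fell into a group just past the limit and a broad group several kb away. The distance ranged from 501 to 1800000 bp with a median of 6390 (quartiles 1240 and 14800). It was under 600 bp for 183 sites (11.7%) and at most 1 kb for 339 (21.6%), whereas 904 (57.7%) lay over 5 kb from every WT centre. The nearest WT peak came from the 30 min list for 811 sites, the 8 h list for 611 and the control list for 145. Just inside the limit were sites near Dgkh at 501 bp and at Rnf157 and Gen1 at 502 bp, with 30 min scores of 27.5, 25 and 33. Just outside it were peaks at Rffl at 498 bp and at Ap5s1 and Myef2 at 497 bp, with scores of 78, 57.5 and 32. On the side of the 8 h partner, sites at Tle4 and Gpd1 lay 500 bp from it and one near Rdh12 499 bp, with 30 min scores of 42, 30.5 and 12.5, while peaks in Epb41l4b and near Rap2a at 501 bp and in Cdnf at 502 bp (29.5, 15 and 16.5) were left out. These few sites show only how close to the limits the choice fell.

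**Figure D1:**
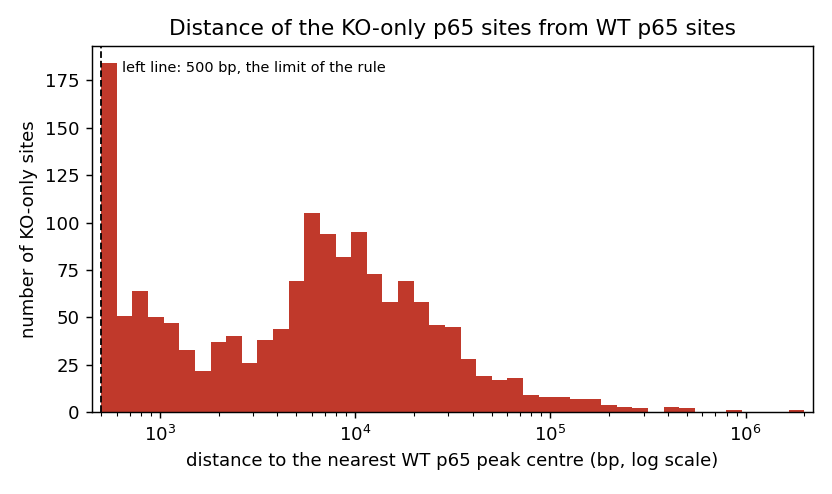
Number of KO-only p65 sites (vertical axis) by distance in bp to the nearest peak centre of the 3 WT p65 lists (horizontal log axis). The tallest bar stands just past the 500 bp limit, and a second, broad group lies around and above the median of 6390 bp.

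KO-only sites had low tag counts. The 30 min score was 11 at the lowest, 21 at the median and 114 at the highest, and the 8 h score was 12, 18.5 and 240, respectively. At the sites of both genotypes the medians were 51 and 42.5, over all KO 30 min peaks the 30 min median was 32, and at peaks called in KO cells at 30 min alone it was 17.5. A 30 min score of at least 50 was reached by 74 KO-only sites (4.72%) and one of at least 20 by 874 (55.8%). The mirror WT-only sites had a median score of 20.5 in their own list. In the authors' scaled unit (tags per 10000000), 1438 of the 1567 sites (91.8%) were at or above the lowest signal of the WT 30 min list and 232 (14.8%) at or above its median, while the lowest signal of the KO 8 h list itself (9.09) lay above that of the WT 8 h list (7.55). Whether WT cells had fewer tags at these places is not shown by the lists, which hold no value where no peak was called.

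**Figure D2:**
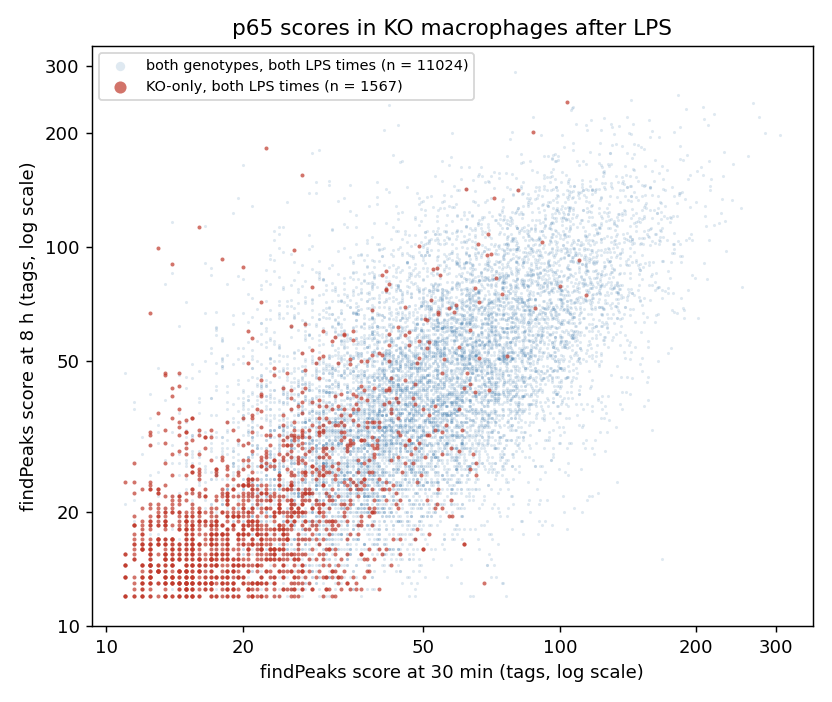
p65 findPeaks score of each site in KO cells at 30 min (horizontal) and at 8 h (vertical), both in tags on log axes, for KO-only sites (red) and sites of both genotypes (blue). KO-only sites fill the lower left corner, with medians of 21 and 18.5 against 51 and 42.5.

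The sites next to WT sites and those far from them differed in score and, mainly at 30 min, in local fold. The limits of 1 kb and 5 kb for this split were chosen after the distances were seen. At 30 min the 339 sites within 1 kb of a WT centre had a median score of 26.5 and a median fold over the local 10 kb background of 6.29. The 904 sites over 5 kb away had 18.5 and 10.0. The 10 kb around a site can hold the tags of a neighbouring p65 peak, so the split by distance and the local fold are not independent. The part of such neighbours in the folds was not tested. At 8 h the median local folds of these sets were closer together, at 6.6 and 7.49. Sites of both genotypes had a median local fold of 11.9 at 30 min and all KO 30 min peaks one of 8.78. The lowest local fold was 4.00, the minimum of the authors' call. A fold of at least 8 in both KO lists was reached by 377 KO-only sites (24.1%). The count of IgG tags was at its floor of 0.5 under 783 KO-only peaks (50%), 59.1% of peaks called in KO cells at 30 min alone, 37.2% of all KO 30 min peaks and 22.3% of sites of both genotypes. The part of low IgG counts in the calls was not tested.

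From 30 min to 8 h the direction depended on the unit. The scaled tag count at 8 h was 1.52 times that at 30 min at the median KO-only site (quartiles 1.13 and 2.04) and above 1 at 81.6%, against 1.18 and 59.9% at the sites of both genotypes. By score the median ratio was 0.927 at KO-only sites and 0.835 at sites of both genotypes, below 1 in both. The score is not scaled to depth, and the 8 h peaks were 493 bp wide against 222 bp at 30 min, so a wider stretch was counted at 8 h. In both units the ratio at KO-only sites was above that at the sites of both genotypes. The calls themselves bear on this, since the lowest signal was 9.09 in the KO 8 h list and 6.51 in the KO 30 min list. A site with a 30 min signal below 9.09 could only have a scaled ratio above 1. The lower quartile of the 30 min signal was 9.22 at KO-only sites and 24.4 at sites of both genotypes. How far these floors account for the difference was not tested.

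Many of the strongest KO-only sites stood beside a WT site. Of the 12 with the highest 30 min score, 8 lay within 1 kb of a WT centre and 2 over 5 kb away, and of the top 40 these numbers were 19 and 11. The highest score, 114, was in Trps1 (a GATA-type zinc finger repressor), at chr15:50704120-50704342, with 74.5 at 8 h and a WT 8 h peak 523 bp away. Upstream of Aoah, at chr13:20787835-20788057, the scores were 103.5 at 30 min and 240.5 at 8 h, the highest 8 h score of the set, with a WT 30 min peak 971 bp away. Aoah encodes acyloxyacyl hydrolase, which inactivates LPS by removing acyl chains. Near Fpr2 (a formyl peptide receptor), at chr17:17901720-17901942, they were 87.5 and 201.5 with a WT 8 h peak at 523 bp. At the start of Mkks (a chaperonin-like protein), at chr2:136891218-136891440, they were 91.5 and 103 with a WT 30 min peak at 504 bp.

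Others of the top 12 were of like kind. Sites in Sgms1 (a sphingomyelin synthase, scores of 100 and 79) and Hsd17b12 (72.5 and 83) lay 892 and 688 bp from a WT site. Those near Itpkb (an inositol trisphosphate kinase, 81 and 141) and Ptchd3 (88 and 69) lay 610 and 585 bp away. Sites in Adam9 (a metalloprotease, 71.5 and 134.5) and Bbc3 (which encodes the pro-apoptotic protein PUMA, 74.5 and 75) lay 2144 and 3757 bp away. At 9 of the top 12, from Trps1 to Adam9, the local fold at 30 min was between 4.22 and 5.59, near the authors' minimum. The other 3 were Mkks (12.65), Nos1 (19.98) and a site in Ankrd55 (11.29) with scores of 76.5 and 51.5, 13700 bp from a WT site.

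The clearest exception was in Nos1. The site at chr5:117872377-117872599, inside the gene and 5649 bp from its start, had a p65 score of 110 at 30 min and 92.5 at 8 h. Its local fold was 19.98 at 30 min and 8.19 at 8 h, and IgG at 30 min was at the floor of 0.5 tags. The nearest WT p65 centre lay 157001 bp away. SOCS1 scores there in KO cells were 12.5 without LPS, 22 at 30 min and 30 at 8 h, and none of the 3 WT SOCS1 lists nor the p65 KO control list had a peak. The other 3 KO-only sites of the Nos1 window were weaker, with 30 min and 8 h scores of 29.5 and 19 at chr5:117861597-117861819, 27 and 27.5 at chr5:117884184-117884406 and 19 and 13 at chr5:117911525-117911747. None of these 3 had a SOCS1 peak, and all 4 lay over 100 kb from a WT p65 site. Since the peaks inside Nos1 come from KO cells, this DNA is present in them, which does not show whether another part of the gene is deleted.

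Most of the other strongest sites far from WT p65 had high local folds at 30 min, and all those named here had lower 8 h scores. The folds given with the scores below are those at 30 min, and the 8 h fold was lower at every one of these sites. It was 4.64 at Ppp1r9a and 4.22 at Mertk, near the authors' minimum, and 7.03 at S100b. The following sites were added for being the highest by 30 min score among those over 5 kb from WT. In Ppp1r9a (neurabin, an actin-binding protein) the scores were 68 at 30 min and 13 at 8 h with a local fold of 21.97. Next to Mertk (a receptor tyrosine kinase by which macrophages take up dying cells), 366 bp from an end of the gene, they were 65.5 and 27 with a local fold of 23.22, and SOCS1 was called in KO cells at 30 min (28.5) and 8 h (26). In Tmub2 they were 64.5 and 28.5 with a fold of 32.77, and in S100b (a calcium-binding protein) 58 and 19.5 with a fold of 35.42. Sites in Foxp1 (a forkhead factor, 60 and 29) and Magi2 (61.5 and 16.5) and with Med4 (a Mediator subunit, 60 and 37.5) and Ppp1r3b (61.5 and 16.5) as their nearest genes followed, as did one in Wdr48 (57.5 and 21.5). The exception was a site in Map3k20 (a stress kinase), 5163 bp from a WT site, with scores of 63.5 and 26 and a local fold of 4.77. At all of these 30 min was the higher score, a direction that a choice by the highest 30 min score favours. Among all 904 sites over 5 kb from WT p65, the 8 h score was the higher at 36.8%.

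The sites named for their 8 h score had higher scores at 8 h than at 30 min, to very different degrees. A choice by the 8 h score favours this direction, and among all KO-only sites the 8 h score was the higher at 40.9%. Near Schip1, a pair of KO-only sites had scores of 22.5 and 27 at 30 min and 182.5 and 154.5 at 8 h. The nearest RefSeq start to both is that of Il12a, which encodes a subunit of interleukin-12, 57713 and 52760 bp away, and WT p65 sites lay 572 and 4381 bp away. In F7 (coagulation factor VII) the scores were 62 and 142.5, near Thnsl2 16 and 113, near Ankdd1a 69.5 and 108.5 and in Pstpip1 (a cytoskeletal adaptor of leukocytes) 66 and 102. Near Gm1966 they were 49 and 100.5, and at the X-linked site whose nearest gene is Tmsb4x (thymosin beta) 13 and 99.5.

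In untreated KO cells few KO-only sites had a p65 peak. A peak of the p65 KO control list lay within 500 bp of 121 sites (7.72%, 6.45 to 9.16). This list played no part in the choice, but the WT control list did. Sites with a p65 peak in untreated WT cells were thus left out of the KO-only set. They were also left out of the peaks called in KO cells at 30 min alone. All KO 30 min peaks and the sites of both genotypes were not limited in this way. How far this lowers the share of KO-only sites was not tested. The share with a KO control peak was 15.3% of all KO 30 min peaks and 25.9% (25 to 26.7) of sites of both genotypes. It was 4.22% (3.8 to 4.66) of peaks called in KO cells at 30 min alone. Over all scores, the share of KO-only sites thus lay between the latter and all peaks. It was higher at higher 30 min scores, from 2.75% of the 764 KO-only sites in the lowest of 4 score groups (cut at 20.5, 32 and 50.5, the quartiles of all KO 30 min peaks) to 27.5% (17.5 to 39.6) of the 69 in the highest. In the same groups the sites of both genotypes had 2.60% and 34.7%, and all KO 30 min peaks 2.55% and 31.5%. In the groups between, KO-only sites had 8.33% and 18%, against 9.23% and 18.6% of all peaks. Within score groups the share of KO-only sites thus lay near that of all peaks. Among the KO-only sites with a control peak, those with the highest 30 min scores were at Sgms1 (control score 11), Mkks (18.5), Ssh1 (a cofilin phosphatase, 15.5), Adnp (18), Bcdin3d (10) and Higd2a (12).

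SOCS1 peaks were called at KO-only p65 sites more often in KO than in WT cells, and in the LPS lists this gap was larger than at other p65 sites. In KO cells a SOCS1 peak lay within 500 bp of 274 KO-only sites without LPS (17.5%, 15.6 to 19.5), 258 at 30 min (16.5%, 14.7 to 18.4) and 245 after 8 h (15.6%, 13.9 to 17.5). In WT cells the counts were 112 (7.15%, 5.92 to 8.54), 153 (9.76%, 8.34 to 11.3) and 110 (7.02%, 5.80 to 8.40). The KO and WT intervals did not overlap in any of the 3 treatments. Over all KO 30 min peaks the shares with SOCS1 were 26.1%, 32.6% and 26.1% in KO cells and 14.8%, 30.9% and 25.1% in WT cells. Over all scores, SOCS1 was thus called at KO-only sites less often than at all p65 peaks in each of the 6 lists. Within the 4 score groups this difference was smaller in the KO lists. In KO control cells the shares from the lowest to the highest group were 7.98%, 20.8%, 33% and 50.7%, against 8.08%, 21%, 32.6% and 43.7% of all peaks. In WT cells at 30 min they were 3.8%, 12.1%, 20.4% and 26.1%, against 5%, 18.1%, 37.9% and 63.8%.

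The ratio of the KO count to the WT count sets the sites side by side. At KO-only sites it was 2.45 without LPS, 1.69 at 30 min and 2.23 at 8 h. At sites of both genotypes it was 1.62, 1.06 and 1.07, at all KO 30 min peaks 1.76, 1.05 and 1.04, and at peaks called in KO cells at 30 min alone 2.35, 1.06 and 1.11. At the mirror WT-only sites it was 1.85, 0.804 and 1.11, so that the 30 min ratio lay below 1 where p65 was called in WT cells alone. In control cells the ratio was above 1.5 in all these sets, and the KO control SOCS1 list was also the longest of the 6 (24270 peaks against 9438 in WT). At the LPS times the lists were of like length (19931 against 19631 at 30 min and 15633 against 13720 at 8 h). Their peaks were wider in KO than in WT cells, 396 against 227 bp at 30 min and 375 against 260 bp at 8 h. More of the tags lay in peaks in KO cells, 8.1% against 5.41% at 30 min and 5.11% against 3.3% at 8 h. The part of these differences in the ratios was not tested. KO-only sites over 5 kb from WT p65 had ratios of 2.45, 2.00 and 2.43, and those within 1 kb 2.62, 1.57 and 1.92. When all KO 30 min peaks were limited in the same way to those over 5 kb from WT p65, their ratios were 2.87, 1.40 and 2.10, so the KO-only sites differed less from this set, and in control cells not in the same direction. The p65 and SOCS1 lists of a genotype and treatment were called against the same IgG library, whose part in this result was not tested.

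**Figure D3:**
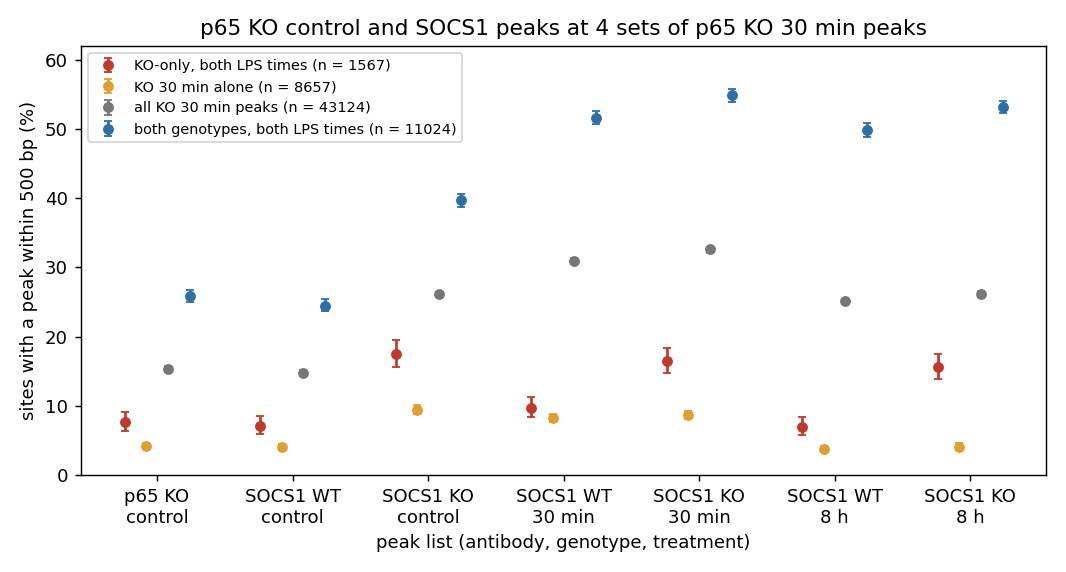
Share of sites in percent (vertical axis) with a peak within 500 bp in the p65 KO control list and the 6 SOCS1 lists (horizontal axis) for 4 sets of p65 KO 30 min peaks; bars are exact 95% intervals. The red points of the KO-only sites lie at 15.6% to 17.5% in the SOCS1 KO lists and 7.02% to 9.76% in the WT lists.

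The gap was also seen within groups of like KO 30 min p65 score. These groups do not match p65 in WT cells, since the choice left out sites with a WT p65 peak. Over all KO 30 min peaks the SOCS1 share rose with this score, from 5% to 63.8% in the WT 30 min list. How far the choice accounts for the lower WT shares at KO-only sites was not tested. At 30 min, SOCS1 was called in KO cells at 6.41%, 16.9%, 39.3% and 56.5% of the KO-only sites from the lowest to the highest score group, and in WT cells at 3.8%, 12.1%, 20.4% and 26.1%. The intervals of the genotypes overlapped in the lower 2 groups. In group 3 they were 32.6 to 46.3 in KO and 15.1 to 26.5 in WT cells. In group 4 they were 44 to 68.4 and 16.3 to 38.1. They cover counting error over the same sites and are no test of the genotypes. At the sites of both genotypes the KO shares were 11.4%, 25.7%, 46.1% and 72.4% and the WT shares 8.31%, 21.7%, 42.7% and 69.6%. At 8 h the KO-only sites of the highest group had 43.5% (31.6 to 56.0) in KO and 20.3% (11.6 to 31.7) in WT cells, whereas the sites of both genotypes had 63.7% and 67.8%. In the upper 2 groups, with 206 and 69 KO-only sites, the KO shares lay nearer to those of the comparison set than the WT shares did at both LPS times. In the lower 2 groups, with 764 and 528 sites, this did not hold at 8 h. The KO shares were then 7.59% and 16.1% against 28.6% and 34.8%, and the WT shares 3.4% and 7.39% against 14.8% and 22.4%. At 30 min it did not hold in the lowest group either, with 6.41% against 11.4% in KO and 3.8% against 8.31% in WT cells.

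**Figure D4:**
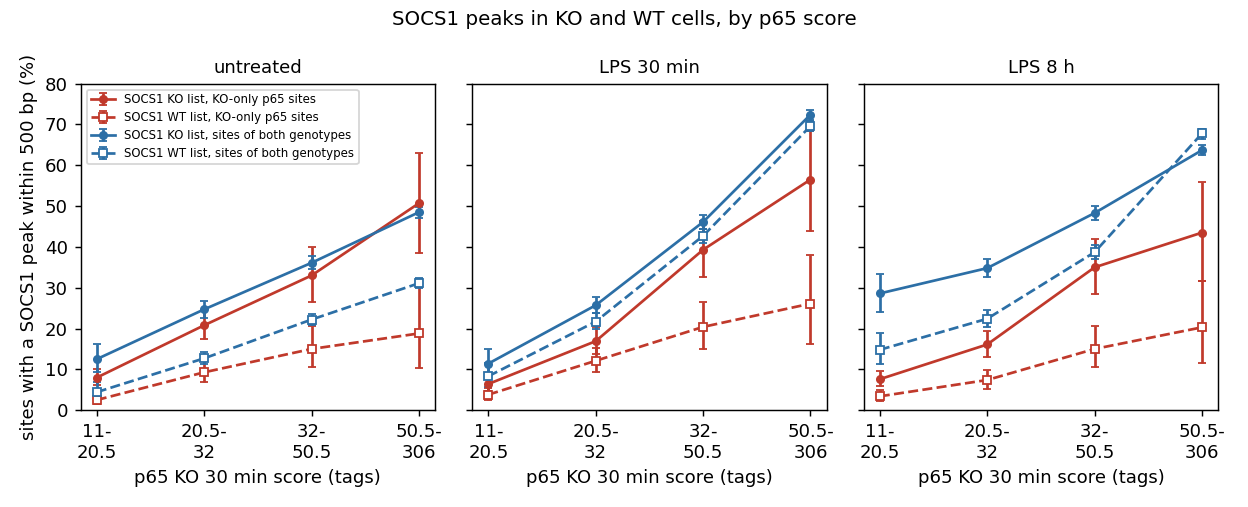
Share of sites in percent with a SOCS1 peak within 500 bp (vertical axis) by p65 KO 30 min score group in tags (horizontal axis), untreated and at both LPS times; filled points and solid lines are SOCS1 KO lists, open points and dashed lines WT lists, and bars are exact 95% intervals. At the LPS times the lines of the KO-only sites (red) part by genotype, as with 56.5% and 26.1% at 30 min in the highest group, more than those of the sites of both genotypes (blue).

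SOCS1 calls repeated across treatments at KO-only sites less than at sites of both genotypes. A peak in 1 of the 3 KO lists was found at 378 sites, in 2 at 135 and in all 3 at 43, and the WT counts were 279, 45 and 2. Of the 556 sites with a SOCS1 peak in any KO list 32% (28.2 to 36.1) had one in at least 2, against 63% (61.9 to 64) of sites of both genotypes, 47.9% of all KO 30 min peaks and 18.9% of peaks called in KO cells at 30 min alone. A SOCS1 peak in at least 1 KO list and in no WT list was found at 365 sites (23.3%, 21.2 to 25.5), against 16.6% of all KO 30 min peaks, 14.2% of sites of both genotypes and 12.4% of peaks called in KO cells at 30 min alone. One in at least 1 WT list and in no KO list was found at 135 (8.62%), against 11.2% of all peaks, and none in any of the 6 lists at 876 (55.9%), against 37.1%. All 3 KO lists and no WT list had a peak at 18 sites (1.15%, 0.682 to 1.81, against 0.83% of all peaks), Nos1 and Aoah among them. All 3 WT lists and no KO list had one at 0 of 1567 (exact upper limit 0.235%, against 0.327% of all peaks). At Aoah the SOCS1 KO scores were 12 without LPS, 24.5 at 30 min and 47 after 8 h. At Fpr2 they were 16 at 30 min and 38.5 at 8 h, with no peak in KO control cells or in WT cells. At Ankrd55 they were 18 at 30 min and 13 at 8 h, and SOCS1 was also called in WT control cells with 18.5. At Mkks SOCS1 was called at 30 min in both genotypes, with 97.5 in KO and 48.5 in WT cells, and at 8 h in WT cells alone (30). In Hsd17b12 both genotypes had a peak at 30 min (33 in KO and 26.5 in WT cells) and at 8 h (11.5 and 12.5). In Trps1 WT cells had one at both LPS times (20.5 and 12.5) and KO cells at 8 h (16). SOCS1 was thus called in KO lists alone at some of the strongest sites and in both genotypes at others.

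KO-only sites lay inside genes about as often as other p65 sites and somewhat less often at gene ends and start sites. Of the sites, 56.0% (53.5 to 58.4) lay inside a protein-coding gene, against 55.7% of all KO 30 min peaks. Within 1 kb of a gene end were 19.4% (17.5 to 21.4), against 22.7% of all KO 30 min peaks, 24.3% of sites of both genotypes and 15.9% of peaks called in KO cells at 30 min alone. Within 1 kb of a RefSeq start were 19.1% (17.2 to 21.2), against 21.8%, 24.1% and 14.5%. The start site share was 32.4% (27.5 to 37.7) for sites within 1 kb of WT p65 and 13.8% (11.6 to 16.3) for those over 5 kb away, so sites remote from WT p65 were more often far from promoters. In all, 54 sites (3.45%) lay within 10 kb of another KO-only site.

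The share of KO-only sites was higher on chromosome X than on each autosome, though intervals overlapped with those of several autosomes. KO-only sites were 59 of 1028 KO 30 min peaks on X (5.74%, 4.4 to 7.34), against 2.96% to 4.32% on the 19 autosomes. Of the KO-only sites 3.77% (2.88 to 4.83) lay on X, as did 3.76% of those over 5 kb from WT p65, 2.92% of the peaks called in KO cells at 30 min alone, 2.47% of the mirror WT-only sites and 1.73% of the sites of both genotypes. The whole 30 min lists had like shares on X, 2.38% in KO and 2.31% in WT cells. In the other p65 lists used by the choice the share was 2.32% in KO cells at 8 h, 1.99% in WT cells at 8 h and 1.83% in WT control cells. The part of these list differences in the share on X was not tested.

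**Figure D5:**
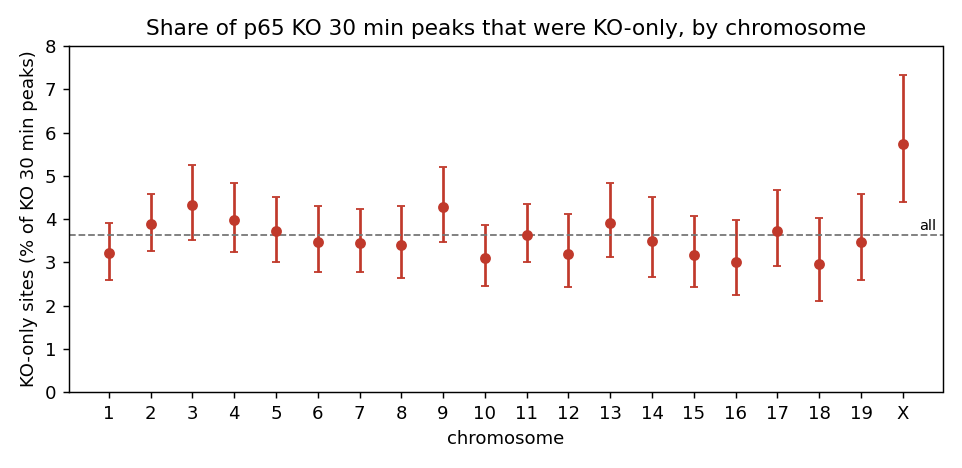
KO-only sites as a share in percent of the KO 30 min peaks (vertical axis) on each chromosome (horizontal axis), with exact 95% intervals; the dashed line is the share over all chromosomes, 3.63%. Chromosome X lies highest at 5.74% (4.4 to 7.34), and the autosomes lie between 2.96% and 4.32%.

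Most genes near a KO-only site were also near WT p65 sites. A KO-only site lay within 10 kb of an end of 1096 of 21883 protein-coding genes (5.01%), and 944 of these (86.1%) had a WT p65 peak within the same distance, compared with 63.8% of all genes. The other 152 had none. Of 297 distinct genes in 15 lists of macrophage pathways and other cell types, 21 (7.07%, 4.43 to 10.6) had a KO-only site, near the share of all genes. The lists were drawn up with earlier results of these data known.

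Among NF-κB subunits and feedback inhibitors, 2 of 20 had a KO-only site. They were Nfkb1, which encodes an NF-κB subunit (scores of 27.5 at 30 min and 25.5 at 8 h), and Tnip2, an A20-binding inhibitor (27 and 41.5). Cytokines had 1 of 23, Tnfsf15 (22 and 28), and chemokines 1 of 18, Cxcl9, whose site lies nearest to Sdad1 (18.5 and 13.5). Interferon-stimulated genes had 4 of 31. Rsad2 (viperin, an antiviral enzyme) shared with its neighbour Cmpk2 a site of 25.5 and 62, Irgm1 (an immunity-related GTPase) shared one with Trim7 (41.5 and 42), and Isg15 was the last. SOCS1 was called in KO cells alone at the Rsad2 site (10.5 at 30 min and 26 at 8 h) and at the Irgm1 site (14.5, 26 and 24). The 4 interferon-stimulated genes also had a WT p65 peak within 10 kb.

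TLR4 signalling genes had 3 of 25. Irak3, an inhibitor of TLR signalling, had a site of 41.5 and 77, 509 bp from a WT site, with SOCS1 in KO cells in all 3 lists (17.5, 16.5 and 21). Irak1, the kinase on chromosome X, had one of 16 and 12, 33581 bp from a WT site, and Ticam2 (the TRAM adaptor) was the third. JAK-STAT and SOCS genes had 1 of 31, the interferon receptor gene Ifnar1 (19 and 22), and Socs1 was not among them. Macrophage identity genes had 2 of 20, Mertk and Cebpb (C/EBP beta, 18.5 and 26.5), and nitric oxide synthase and arginine genes 1 of 15, Nos1. None of the 24 immediate-early and 21 glycolysis genes had one.

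Genes of other cell types were few as well. Neutrophil markers had 2 of 12, Elane and Prtn3, neighbours on chromosome 10 that shared a site of 29.5 and 32 with a WT site 550 bp away. Another KO-only site within 10 kb of Elane, nearest to Med16, had scores of 17 and 12 and lay 8714 bp from a WT site. Dendritic cell markers had 1 of 10 (Cd24a, 30 and 23.5), lymphocyte markers 0 of 14, neuronal and hepatic genes 2 of 20 (Fgb and Slc17a7, each at a site nearer to another gene) and housekeeping genes 1 of 15 (Gusb, 17.5 and 17.5). With counts of 0 to 4 per list, no list stood apart at this number of sites. The most KO-only sites within 10 kb of a gene's ends were 3, at Noc2l and Rps10, and 49 genes had at least 2.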

How the data were processed

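Per the submitters' processing notes, reads were trimmed with cutadapt, aligned to mm10 with Bowtie2 2.4.1 and analysed with HOMER 4.11. Per the file headers, the authors called each of the 12 lists with findPeaks from 1 library, with the matching IgG library as control, at an FDR of 0.001, with at least 4-fold over IgG and over the local 10 kb and a Poisson p of at most 0.0001. The deposited signal is tags in a peak per 10000000 tags. The deposited score is the authors' findPeaks score, the tag count with each position counted at most 1 time, and carries no scaling for depth. The deposited IgG tag count (the control tags, with a floor of 0.5), the authors' ratio (fold over IgG, local background and clonal expectation), p-value (Poisson, per peak) and fraction (focus ratio) were taken as they stand. Of the 20 samples in the labels, 6 IgG libraries came in only by way of these calls and 2 internal controls were not used here, nor was the E. coli spike-in.

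Centres within 500 bp counted as the same site (pandas 2.3.3, NumPy 2.4.6); matching was tested on simulated peaks. Shares have exact Clopper-Pearson intervals (95%, SciPy 1.17.1), which cover counting error only. With 1 library per group there are no replicates and no test was made. Depth was 7.69 to 18.4 M tags (10 M are 10000000) for p65 and 6.93 to 9.74 for SOCS1. Peaks had at least 7 to 12 tags, so a missing call does not show that p65 or SOCS1 was absent. Genes were the 21883 protein-coding genes of the RefSeq table. No mm10 genome was used here, so the planned motif search of whole peaks was replaced by a search of RefSeq promoter windows.

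The members and the gene lists were chosen with earlier results of these data known. Sites were named by rule: the 12 with the highest 30 min score, the 8 with the highest 8 h score besides these, the 6 highest with SOCS1 in KO cells at both LPS times, the 6 highest with a p65 KO control peak, the 2 highest of each gene list, all in the Nos1 window, genes with at least 3 sites and the 3 sites next to each limit. Promoter sites and sites over 5 kb from WT p65 were added after seeing the data. Each site bears the name of the protein-coding gene it lies in or whose end is nearest. Alternatives were other distances, stricter folds and scores, and, chosen after seeing the data, leaving out either KO list and keeping sites over 5 kb from WT p65.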

Additional observations from a re-analysis of the deposited data

How the results depend on the processing

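The number of KO-only sites depended on the definition of a site. It was 2552 with overlap by 1 bp in place of centre distance, 377 with only KO peaks 8-fold above local background, 915 with 8-fold above IgG and 513 with scores of at least 20 in both lists. Alternatives chosen after seeing the data gave 10224 without the KO 8 h list, 5891 without the KO 30 min list and 904 over 5 kb from WT p65. The share with a p65 KO control peak was 5.30% for centres within 200 bp, 10.3% within 1000 bp, 11.7% for scores of at least 20 and 10.9% for sites 8-fold above local background.

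SOCS1 shares (control, 30 min, 8 h) in KO cells were 10.4%, 9.51% and 9.83% within 200 bp, 23.1%, 22.3% and 20.1% within 1000 bp, 25.6%, 25.1% and 23.1% for scores of at least 20, and 13.8%, 11.7% and 11.8% over 5 kb from WT p65. In WT cells they were 5.36%, 5.74% and 5.04%, 9.83%, 14.6% and 9.96%, 11.1%, 14.4% and 10.2%, and 5.64%, 5.86% and 4.87%. At sites 8-fold above local background the WT 30 min share was 7.43% and the KO 8 h share 17.8%. The KO share exceeded the WT share in each treatment under all 5 of these settings. The ratio of KO to WT shares was 1.53 to 2.29 at 30 min and 1.95 to 2.58 at 8 h, above that of all KO 30 min peaks filtered alike in the 30 min list (0.952 to 1.40 and 0.960 to 2.10). In control cells it was not always above, since over 5 kb from WT p65 it was 2.45 at KO-only sites and 2.87 at all peaks.

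The median 8 h to 30 min ratio was 1.37 at sites 8-fold above local background and turned to 0.927 by score; scores are not scaled to depth. Within 1 kb of a gene end lay 24.4% of sites with a score of at least 20, 22.0% of those 8-fold above local background and 14.4% of those over 5 kb from WT p65, and 49.9% of the 8-fold sites lay inside a gene. Within 5 kb and 50 kb of another KO-only site lay 2.04% and 15.8%. Of the sites over 5 kb from WT p65, 3.21% lay on chromosome 8 and 5.86% on chromosome 11. The listed genes with a KO-only site numbered 2 of 297 at 1 kb and 53 at 50 kb, where 1.57% and 13.9% of all genes had one. No paired analysis was possible because each group was 1 library. The limits that bear on all values are the single library per group, the greater depth of the KO 30 min library, and lists that hold no value below their lowest score.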
